A study of Mus musculus with 24 samples.

Results

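The genes described here are 10 genes best known from bone and from bone-resorbing osteoclasts: *Spp1*, *Gpnmb*, *Ctsk*, *Acp5*, *Runx2*, *Sparc*, *Sparcl1*, *Tnfrsf11a*, *Mgp* and *Bmp6*. They were picked by gene symbol from the 32288 features counted in each library, and each symbol matched 1 feature. Their unique molecular identifiers (UMIs, 1 per captured RNA molecule) were followed in 24 single-nucleus libraries, 1 from the deep brain and 1 from the cortex of each of 12 mice. The mice were 6 *Pdgfb* ret/ret animals (mutants) and 6 *Pdgfb* ret/wt controls of the B6.Pdgfbtm3Cbet strain, so that the controls also carry 1 ret allele in every cell. All mutants and 5 controls were female and control 6 was male, and the labels give ages of 4 months and 7 days to 5 months and 18 days. The ret allele removes the retention motif of the growth factor PDGF-B, which leaves brain vessels short of pericytes, and mutants form calcifications along vessels of the deep brain, the region the labels call prone to them. The labels name no treatment.

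Bone matrix is laid down by osteoblasts and mineralizes around secreted proteins, some of which favour and some of which restrain crystal growth. Osteoclasts arise from the same myeloid stem line as macrophages, mature under RANKL through its receptor RANK, and dissolve mineral with acid and proteases. Several of these genes are also active in brain glia and vessels, and osteopontin and cathepsin K have been studied around brain calcifications.

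Deep brain libraries held 64736053 to 96459036 UMIs, with medians of 3547 to 7314.5 UMIs per nucleus kept. Cortical libraries were less even, at 23625232 to 95605387 UMIs, and 7 of the 12 had a median below 1500 UMIs per nucleus. Of 237224 barcodes, 204925 passed the limits on genes and mitochondrial UMIs. Any pair of libraries shared 60 to 246 barcodes, at most 2.37% of the smaller one. Nuclei were clustered in each region and clusters took a class name from fixed marker genes, so a name stands for nuclei like that type. In the deep brain this gave 2269 microglial nuclei after the removal of nuclei with a UMI of *Mrc1*, *Mbp*, *Aqp4* or *Rbfox3*, with 1910 fibroblast, 195 mural, 598 endothelial and 10451 astrocyte nuclei. In the cortex it gave 1068 microglial, 489 fibroblast, 122 endothelial and 1616 astrocyte nuclei. Only 29 mural nuclei were found in the cortex, where 1 library held at least 5, so mural cells of the cortex could not be fitted. The markers of each class were found in it: microglial libraries of deep brain controls summed to 11795.7 to 15502.2 CPM (the UMIs of a gene scaled to an equal total per library and class) of the 6 microglial markers, with at most 2.96 CPM of the 5 border macrophage markers, a sum that the removal of nuclei with *Mrc1*, 1 of the 5, lowers by itself.

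By position in GRCm38, *Spp1* lies on chromosome 5 at 104435118 to 104441050 on the plus strand. The nearest of the genes looked up around it is *Pkd2*, downstream at 104459450 to 104505819. Upstream lie other genes of mineralized tissue, *Mepe*, *Ibsp*, *Dmp1* and *Dspp*, and then *Sparcl1* at 104079111 to 104113733 on the minus strand. *Gpnmb* lies on chromosome 6 at 49036546 to 49070929, *Ctsk* on chromosome 3 at 95499256 to 95509362, *Tnfrsf11a* on chromosome 1 at 105780718 to 105847981 and *Bmp6* on chromosome 13 at 38345107 to 38500302, all on the plus strand. *Mgp* on chromosome 6 at 136872435 to 136875823, *Acp5* on chromosome 9 at 22126727 to 22135711, *Sparc* on chromosome 11 at 55394500 to 55423183 and *Runx2* on chromosome 17 at 44495987 to 44814797 are on the minus strand. The libraries were made with a kit that reads the 5′ end of captured RNA, and introns were counted.

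Promoter windows from RefSeq (GRCm38.p6), 250 bases before to 50 after a start, were given for 8 of the 10 genes. The windows of *Spp1* and *Gpnmb* are shown because both genes had more UMIs in CAM-gene-positive microglial nuclei, described with the microglia, that of *Bmp6* because it was the gene that differed most between genotypes, and that of *Runx2* because it encodes the factor whose core motif was searched. Capitals mark TGTGGT, the core letters bound by RUNX factors, or its reverse complement ACCACA, and, in *Bmp6* only, CACGTG. In *Runx2* the first capital run overlaps a CACATG motif read on to the next letters.
Spp1 (chr5:104434861-104435160, plus strand): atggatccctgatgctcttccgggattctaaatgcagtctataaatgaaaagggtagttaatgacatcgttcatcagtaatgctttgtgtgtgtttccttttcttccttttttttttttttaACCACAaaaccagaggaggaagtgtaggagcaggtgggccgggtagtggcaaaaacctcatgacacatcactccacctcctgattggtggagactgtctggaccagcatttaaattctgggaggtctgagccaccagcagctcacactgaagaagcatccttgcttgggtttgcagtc
Gpnmb (chr6:49036268-49036567, plus strand): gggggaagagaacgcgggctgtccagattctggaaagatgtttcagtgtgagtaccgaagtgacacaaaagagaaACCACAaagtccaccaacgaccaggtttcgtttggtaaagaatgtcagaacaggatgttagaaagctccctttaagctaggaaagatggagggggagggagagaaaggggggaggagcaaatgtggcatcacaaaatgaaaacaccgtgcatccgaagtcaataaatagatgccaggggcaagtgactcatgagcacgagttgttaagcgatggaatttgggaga
Bmp6 (chr13:38345466-38345765, plus strand): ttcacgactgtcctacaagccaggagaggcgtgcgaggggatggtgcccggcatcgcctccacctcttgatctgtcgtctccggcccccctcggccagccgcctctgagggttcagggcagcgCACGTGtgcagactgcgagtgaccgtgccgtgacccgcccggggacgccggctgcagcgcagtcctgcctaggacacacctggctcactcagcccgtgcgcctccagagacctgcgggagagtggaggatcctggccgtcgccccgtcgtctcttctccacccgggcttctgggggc
Runx2 (chr17:44814578-44814877, minus strand): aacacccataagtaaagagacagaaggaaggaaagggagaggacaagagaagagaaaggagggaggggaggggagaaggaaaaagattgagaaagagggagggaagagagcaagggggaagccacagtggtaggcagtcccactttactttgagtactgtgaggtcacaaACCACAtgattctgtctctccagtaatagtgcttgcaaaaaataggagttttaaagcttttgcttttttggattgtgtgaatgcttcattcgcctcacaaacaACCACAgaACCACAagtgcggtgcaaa
TGTGGT on either strand was present in 4 of the 11 windows of these genes and in 16.8% of 32851 mouse windows. *Runx2* held 3 sites and *Spp1*, *Gpnmb* and *Sparc* held 1 each. CACGTG, a letter string that MITF and TFE factors can bind, was in 1 of the 11 windows and in 7.15% of all, and the related CACATG was in 2 of 11 and in 14.2% of all. These matches are descriptions of letters and not of binding.

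Microglia were the class in which osteoclast-type genes could be compared most directly. The receptor gene *Tnfrsf11a*, which encodes RANK, was found in border macrophages and microglia above all other classes. In deep brain controls it had 494 ± 140 CPM (SD, n = 6) in border macrophages and 213 ± 55.3 in microglia, and the libraries of the next class, endothelial cells, stayed at or below 111. Its microglial level in single controls was 210, 151, 161, 284, 201 and 273 CPM, and in mutants 272, 198, 184, 220, 197 and 220 CPM. The groups overlapped, and the log2 fold change of mutants over controls was 0.03 (SE 0.14, adjusted p = 0.997 by edgeR's quasi-likelihood test). In the cortex it was 0.07 (SE 0.19, adjusted p = 0.991).

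Few UMIs of the genes of the mature osteoclast were captured in microglia, and at this depth that does not show that the genes are silent. *Acp5*, which encodes tartrate-resistant acid phosphatase, gave 1 UMI in the 2269 microglial nuclei of the deep brain. *Ctsk*, which encodes the collagen-cutting protease cathepsin K, gave 3 UMIs in 3 of 1283 nuclei of mutants and 5 UMIs in 5 of 986 nuclei of controls. *Gpnmb*, a membrane glycoprotein of osteoclasts and lipid-laden macrophages, gave no UMI in the 986 control nuclei, which allows up to 0.304% of nuclei with a captured UMI, and 26 UMIs in 5 of 1283 mutant nuclei. Of those 26 UMIs, 22 came from 1 nucleus of mutant 1. The class highest in *Ctsk* was fibroblasts, as described with the vascular genes, and in oligodendrocytes 4.64% of control nuclei had a UMI of it.

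*Spp1*, which encodes osteopontin, a secreted phosphoprotein of bone matrix that also marks activated macrophages, was low in microglia. Its microglial level in deep brain controls was 0, 11.6, 13.2, 2.96, 4.89 and 15.0 CPM and in mutants 4.15, 0, 31.5, 29.7, 9.40 and 42.9 CPM. Mutants 3, 4 and 6 thus lay above every control and the other 3 lay within the control range. The gene did not pass the filter on low counts, and without a filter it was not called (log2 fold change 1.25, SE 0.43, unadjusted p = 0.00339, adjusted p = 0.364 by edgeR, 0.338% of 19539 genes called). The share of microglial nuclei with a *Spp1* UMI, after thinning to 1000 UMIs, was 0.879% ± 0.830 in mutants and 0.700% ± 0.491 in controls (n = 6 each, two-sided exact permutation test, p = 0.669, adjusted p = 0.936 over 7 genes). None of the 7 genes tested differed in that share at an adjusted or an unadjusted p below 0.05, including *Sparc* (53.2% ± 4.27 in mutants, 3.13 percentage points above controls) and *Tnfrsf11a* (19.6% ± 4.16 against 19.1% ± 5.29).

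The 3 genes that passed the filter in microglia, *Sparc*, *Sparcl1* and *Tnfrsf11a*, were not called between genotypes in either region, where 0.123% of the 7295 genes tested in the deep brain and 0.215% of the 2790 in the cortex were called. *Sparc* was 856, 796, 799, 828, 763 and 630 CPM in deep brain microglia of controls and 849, 758, 929, 852, 855 and 687 in mutants, and the groups overlapped (0.09, SE 0.09, adjusted p = 0.965). *Sparcl1*, which encodes the matrix-associated protein hevin, had the smallest unadjusted p, 0.0365 in the deep brain (log2 fold change 0.39, SE 0.18, adjusted p = 0.794). No member passed DESeq2's threshold there either. Of the 24 genes of an osteoclast list, which took in *Nfatc1*, *Car2* and the proton pump subunit *Tcirg1*, 12 were tested in deep brain microglia, none was called, and their median log2 fold change was −0.08 against 0.00 over all genes.

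The study describes calcification-associated microglia (CAM), microglia that gather at mineral deposits of mutants. Microglial nuclei of the deep brain with a UMI of at least 2 of the 7 CAM genes *Lpl*, *Axl*, *Csf1*, *Flt1*, *Itgax*, *Cst7* and *Igf1* were therefore set against the other microglial nuclei of the same mutants. These 7 genes do not include any of the 10, but the study names them for CAM together with *Spp1*, from these libraries or, for *Cst7* and *Igf1*, from these joined with other data, so their company with *Spp1* is not independent evidence. There were 32 CAM-gene-positive nuclei in mutants, 3 to 8 per library, and 8 in controls. Their median depth per library was 2305 to 3268.5 UMIs in mutants, against 1892 to 2597 for the others.

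*Spp1* and *Gpnmb* stood out in these nuclei. *Spp1* gave 35 UMIs in 9 of the 32 positive nuclei (28.1%, exact 95% interval 13.7 to 46.7%) and 17 UMIs in 16 of the 1251 others (1.28%, 0.733 to 2.07%). In controls it gave 2 UMIs in 2 of the 8 positive nuclei (25.0%, 3.19 to 65.1%) and 16 UMIs in 13 of the 978 others (1.33%, 0.710 to 2.26%). The intervals of the genotypes overlapped. They cover counting error only. The level in positive nuclei was 0, 0, 431, 1080, 120 and 865 CPM in mutants 1 to 6 and in the others 4.33, 0, 7.71, 12.1, 5.82 and 7.89. In 4 of 6 mutants the positive nuclei were higher and in mutants 1 and 2 they held no *Spp1* UMI. *Gpnmb* gave 25 UMIs in 4 positive nuclei (12.5%, 3.51 to 29.0%) against 1 UMI in the others, and 22 of the 25 were in 1 nucleus. The removal of nuclei with a UMI of *Mrc1*, *Mbp*, *Aqp4* or *Rbfox3* took the positive nuclei of mutants from 68 to 32. Over all nuclei of the microglial clusters *Spp1* gave 119 UMIs in 18 of the 68 positive nuclei (26.5%) and 35 UMIs in 31 of 1864 others (1.66%), and *Gpnmb* gave 46 UMIs in 8 (11.8%) and 2 UMIs in 2 (0.107%). These genes did not pass the filter. Without a filter *Spp1* was called at a log2 fold change of 4.87 (SE 0.64, adjusted p = 2.03e-11, 1.69% of 17457 genes called), in a fit of the 4 mutants with at least 5 positive nuclei. The study names the CAM genes together with *Spp1*, so this call adds no support to these counts. No fitted value is given for *Gpnmb*, since most of its UMIs came from 1 nucleus.

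*Ctsk* (0 UMIs in 32 positive nuclei against 3 UMIs in 3 of 1251) and *Acp5* (0 and 0) were not seen more often in positive nuclei, and a count of 0 in 32 nuclei allows up to 9.38% with a captured UMI. *Tnfrsf11a* was at 221 pooled CPM in positive and 215 in other nuclei (log2 fold change 0.11, SE 0.39, adjusted p = 0.968). *Sparc*, which encodes the collagen-binding matrix protein osteonectin, was lower in the positive nuclei, at 452 against 838 pooled CPM (log2 fold change −0.87, SE 0.27, adjusted p = 0.0427), in a fit that called 3.94% of 4696 genes. The median of all genes was −0.18 in this fit. The *Sparc* call was lost with RLE size factors and with DESeq2 (adjusted p = 0.113 and 0.246) and in each of the 4 fits that left out 1 of the 4 mutants in it (adjusted p = 0.0646 to 0.340). Among the lists, *Ank*, which exports pyrophosphate, rose by 3.12 and *Mitf* by 0.89 on the log2 scale and *Csf1r* fell by 1.07, while none of the 8 tested genes of the BMP list was called. The study names *Ank* and *Csf1r* among the genes that change in CAM, so their direction here is not independent evidence.

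**Figure D1:**
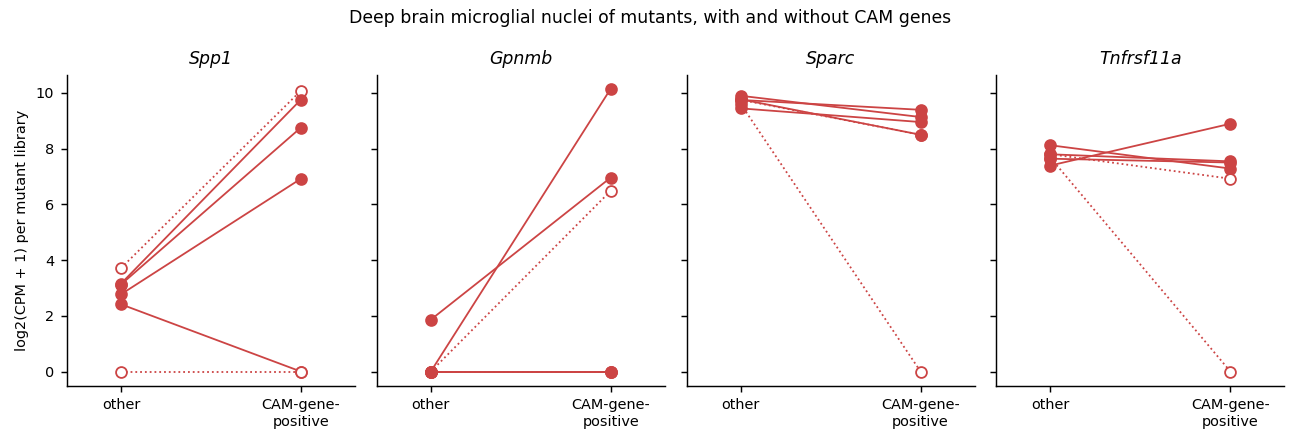
Levels of 4 genes in microglial nuclei of the deep brain of 6 mutants, as log2(CPM + 1) per library, in nuclei with UMIs of at least 2 of 7 CAM genes and in the other nuclei of the same library (joined points). Filled points are the 4 libraries with at least 5 positive nuclei and open points with dotted lines the 2 libraries with 3. *Spp1* was higher in the positive nuclei of 4 libraries, and pooled *Tnfrsf11a* was at 221 CPM in positive and 215 CPM in other nuclei.

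The levels of the 10 genes in the other classes are descriptions with no test, because classes were defined by clustering the same nuclei. In deep brain controls *Sparcl1* was highest in astrocytes, at 3490 ± 374 CPM (SD, n = 6), followed by mural cells at 2299 ± 655 and endothelial cells at 1816 ± 488. Astrocyte libraries ranged from 2950 to 4022 and overlapped with those of mural cells, while the libraries of the endothelial class lay above all of the next class. *Sparc* was highest in microglia, endothelial cells and mural cells (779 ± 79.1, 708 ± 179 and 694 ± 148 CPM), 3 classes whose libraries overlapped, with 429 ± 100 in astrocytes. In the cortex microglia again led, at 1044 ± 173 CPM. *Runx2*, which encodes the master transcription factor of osteoblasts, was highest in fibroblasts (114 ± 24.5) and neurons (88.3 ± 20.9) of the deep brain, whose libraries overlapped. In the cortex neurons held 148 ± 14.5 CPM and 57.4% of control neurons had a UMI. *Gpnmb* was highest in oligodendrocyte precursor cells (OPC), at 8.41 ± 5.08 CPM in the deep brain and 39.8 ± 42.7 in the cortex. A part of the low levels in other classes, such as *Spp1* at 4.81 ± 2.25 CPM in astrocytes (1.51% of nuclei), can be free RNA and was not tested.

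**Figure D2:**
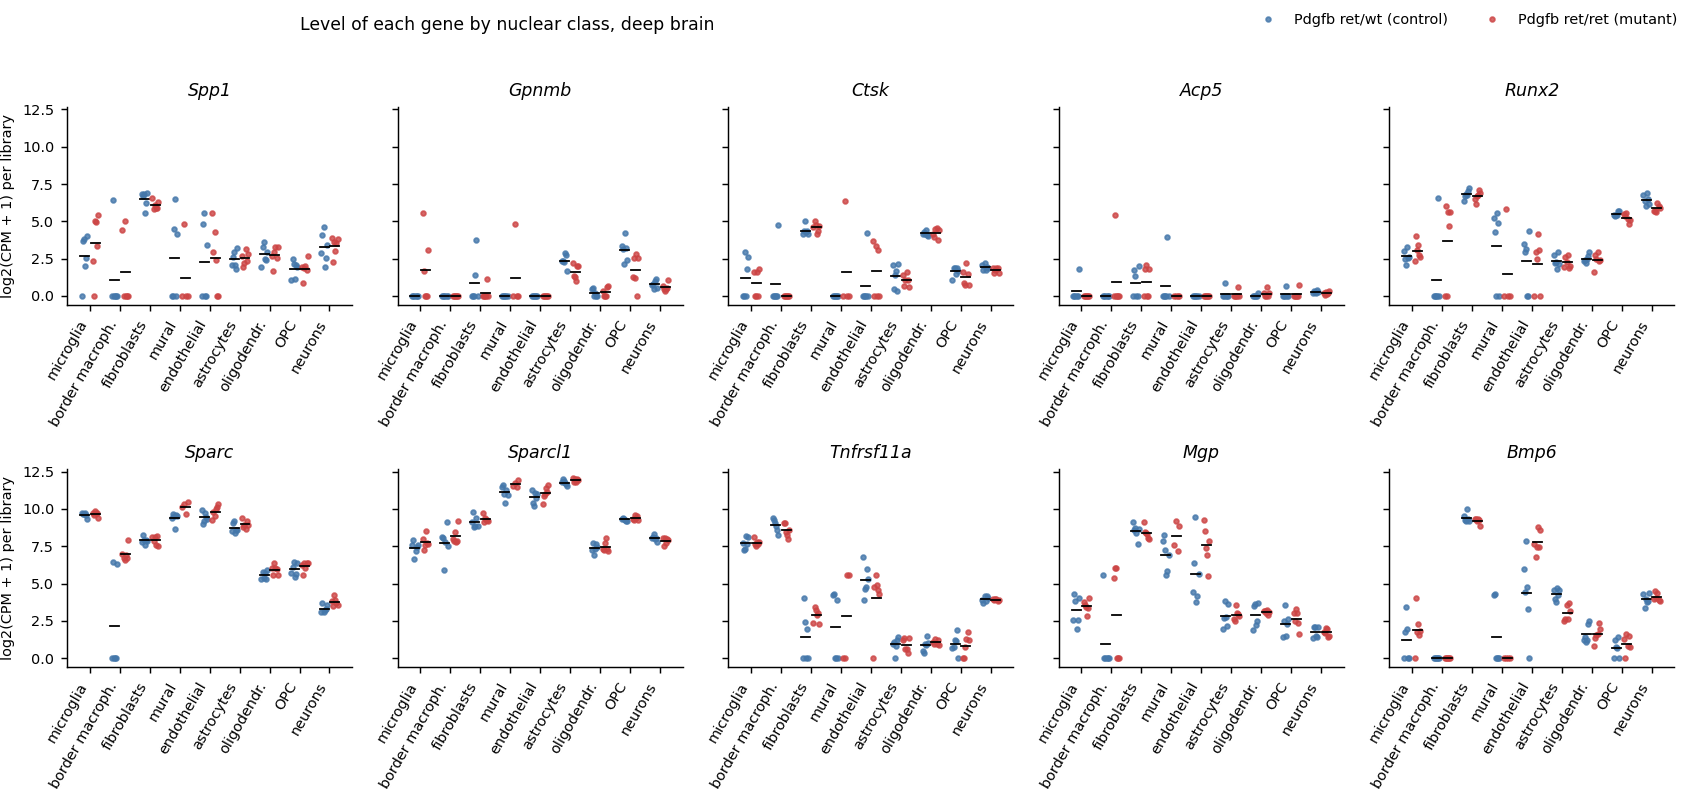
Level of each gene in 9 nuclear classes of the deep brain, as log2(CPM + 1) per library, for controls (blue) and mutants (red). Points are libraries with at least 5 nuclei of the class and bars are group means. *Sparcl1* is highest in astrocytes, *Tnfrsf11a* in border macrophages and microglia, and *Spp1*, *Runx2*, *Mgp* and *Bmp6* in fibroblasts.

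Fibroblasts held the highest levels of 5 of the 10 genes in deep brain controls. *Bmp6*, a bone morphogenetic protein that also signals iron stores to the liver, was at 699 ± 168 CPM in fibroblasts (64.8% of nuclei), above every library of every other class. *Mgp*, which encodes an inhibitor of vascular calcification, was at 383 ± 113, *Runx2* at 114 ± 24.5, *Spp1* at 94.1 ± 28.3 (20.1% of nuclei) and *Ctsk* at 20.3 ± 5.39 CPM. For *Ctsk* the fibroblast libraries overlapped with those of oligodendrocytes, at 17.4 ± 1.90. The fibroblast clusters differed most in *Mgp* and *Bmp6*. In the cluster led by *Slc47a1*, *Mgp* was at 962 ± 435 CPM and *Bmp6* at 223 ± 102, and in the remaining fibroblasts, led by *Slc6a20a* and *Ranbp3l*, *Mgp* was at 88.3 ± 54.4 and *Bmp6* at 960 ± 254. *Runx2* was at 182 ± 66.9 and 70.0 ± 11.2. *Spp1* was at 97.0 ± 67.7 and 96.2 ± 40.6 and *Ctsk* at 18.6 ± 11.7 and 20.1 ± 5.27, values that lie within the spread of each other. These clusters were built from the same genes, so the contrast is a description.

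Between genotypes, none of the 7 genes tested in deep brain fibroblasts was called, and 0.00976% of 10251 genes were. *Spp1* had an unadjusted p of 0.0295 (log2 fold change −0.46, SE 0.19, adjusted p = 0.539). Its level was 111, 105, 112, 45.9, 73.7 and 118 CPM in controls and 92.7, 55.5, 66.8, 59.4, 58.7 and 79.2 CPM in mutants, and the groups overlapped. In the fibroblasts outside the *Slc47a1* cluster, fitted apart after the data had been seen, 0 of 7 genes were called (*Spp1* −0.68, SE 0.23, adjusted p = 0.332, 0.0712% of 8431 genes called). In the cortex 0 of 6 genes were called and 0 at an unadjusted p below 0.05, with 0.0% of 3411 genes called. DESeq2 called no member in fibroblasts of either region.

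The mural class was thin in mutants, with 39 nuclei in 4 libraries of the deep brain against 151 in 6 control libraries. *Sparc* was 660, 819, 751, 411, 781 and 739 CPM in controls and 1140, 1315, 798 and 1408 CPM in mutants 1, 3, 4 and 5. Mutant 4 was the only one of these 4 within the control range, but the change was not called (log2 fold change 0.76, SE 0.29, adjusted p = 0.325, 0.789% of 760 genes called). *Sparcl1* differed by 0.53 (SE 0.28, adjusted p = 0.493).

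*Bmp6* was the member that differed most between genotypes, and it did so in endothelial cells. In the cortex it gave 235 UMIs in 40 of 57 endothelial nuclei from the 3 mutant libraries with at least 5 nuclei and 0 UMIs in 55 nuclei of 5 control libraries. The level was 1194, 938 and 955 CPM in mutants 1, 5 and 6. A count of 0 in 55 nuclei allows a share of nuclei with a captured UMI of up to 5.45%, which does not limit the share that express the gene. Against a floor of 3 counts over the control group, the pooled mutant level of 1001 CPM was at least 73.7-fold higher. That bound covers counting error in the controls only and not the spread between mice. With the controls at 0 the gene passed the filter on low counts through the mutant libraries alone, so the call (adjusted p = 7.76e-05, edgeR) adds no support to these counts. Mutants 2, 3 and 4, left out for having under 5 nuclei, each held 1 nucleus with UMIs, so that over all libraries 43 of 63 mutant nuclei and 0 of 59 control nuclei had a UMI. *Bmp6* was 1 of 3 members tested in this class, in which 2.56% of 1135 genes were called.

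Mural markers moved with genotype in the same nuclei. The sum of the 6 mural markers was 0 to 5736.09 CPM in cortical endothelial nuclei of controls (median 4351.19) and 0 to 396 in mutants (median 19.9), while the 6 endothelial markers were at 8565.46 to 14869.2 and 12635.9 to 14345.7 CPM. The most mural markers with a UMI in a single library were 6 in the controls and 2 in the mutants. Fibroblasts, the class that is highest in *Bmp6*, showed 0 to 161 CPM of their 6 markers in controls and 45.1 to 119 in mutants. The part of these markers in the *Bmp6* result was not tested. In the list of matrix genes, *Bgn*, which encodes the proteoglycan biglycan, rose by 4.23 on the log2 scale in the same class (SE 0.62, adjusted p = 0.00126).

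In deep brain endothelial cells *Bmp6* was 60.7, 20.6, 228, 25.7, 8.64 and 0 CPM in controls and 196, 106, 172, 436, 174 and 381 CPM in mutants. Every mutant lay above 5 of the controls, and mutants 4 and 6 also above control 3, the highest control. The log2 fold change was 1.96 (SE 0.51, adjusted p = 0.0467, 1.54% of 2866 genes called). These levels rest on 217 UMIs in mutants and 41 in controls, 29 of them in control 3. The gene passed the filter on low counts mainly through the mutant libraries, so the call adds little support to these values. DESeq2 gave an adjusted p of 0.235, and 10 of 12 fits that left out a mouse lost it. Without control 3 the log2 fold change was 3.38 (adjusted p = 5.40e-05). Of the endothelial nuclei, clusters led by genes that include *Vwf* held 27.6% and 38.4% of mutant and 11.0% and 15.0% of control nuclei. In the larger of these *Bmp6* was at 355 pooled CPM in mutants and 75.1 in controls, and in the other at 208 and 272. Mural markers here summed to a median of 294 CPM in mutants and 1118.24 in controls. The part of the cluster makeup was not tested. The difference between the regions in the effect of genotype on endothelial *Bmp6* had an unadjusted p of 0.000143 and was not called (adjusted p = 0.120 by edgeR, 0.0529% of 3779 genes called). That fit rests on cortical controls at 0 and 3 cortical mutant libraries, so it gives no fold and does not show that the regions respond alike. *Mgp* was 20.2, 82.3, 714, 12.9, 17.3 and 48.5 CPM in controls and 601, 372, 168, 117, 45.4 and 228 in mutants (log2 fold change 0.56, SE 0.63, adjusted p = 0.838). Without control 3 it was 2.54 (adjusted p = 0.00490).

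**Figure D3:**
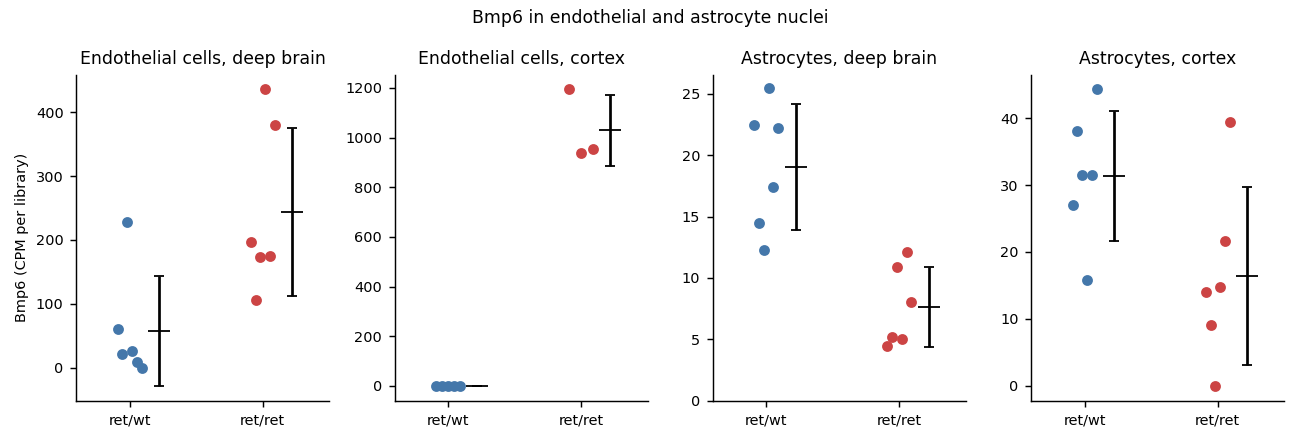
*Bmp6* in CPM per library in endothelial cells and astrocytes of both regions, for controls (ret/wt, blue) and mutants (ret/ret, red), with mean ± SD in black. Cortical endothelial cells of the 5 controls are at 0 and of the 3 mutants at 938 to 1194 CPM, and astrocytes of the deep brain are at 12.3 to 25.5 CPM in controls and 4.50 to 12.1 in mutants.

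Astrocytes of the deep brain showed the opposite direction at a much lower level. *Bmp6* was 22.5, 14.5, 12.3, 25.5, 17.4 and 22.2 CPM in controls and 4.50, 5.21, 10.9, 5.05, 12.1 and 8.08 in mutants, so that all mutants lay below all controls. The log2 fold change was −1.32 (SE 0.26, adjusted p = 0.00585), in a class in which 5.07% of 12829 genes were called, and it was called in all 18 alternative fits. In the larger of the 2 astrocyte clusters *Bmp6* was at 4.50 pooled CPM in mutants and 7.07 in controls and in the smaller at 20.1 and 44.8. The smaller held 17.4% of mutant and 28.4% of control astrocytes. Fitted by itself, a choice made after the data had been seen, the smaller was called (−1.19, SE 0.27, adjusted p = 0.00987, 4.26% of 9460 genes called) and the larger was not (−0.68, SE 0.30, adjusted p = 0.232, 4.81% of 12188 genes called). In cortical astrocytes the log2 fold change was −0.57 (SE 0.34, adjusted p = 0.539). The interaction of region and genotype was not called in astrocytes for any of the 5 genes tested (*Bmp6* −0.79, SE 0.45, adjusted p = 1.00), nor for the 3 in microglia. No gene of the 12393 and 8387 tested was called there (0.0%). *Sparc* in astrocytes (0.98, SE 0.30) was the 1 value with an unadjusted p below 0.05. DESeq2 also called none.

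Other genes of the BMP pathway, in which ligands act through type I and type II receptors on SMAD factors and their *Id* targets, were read from a list of 28 genes. Over the genotype comparisons 258 gene and class pairs of that list were tested and 3 rose and 1 fell (1.55%), against 1.06% of 166652 pairs over all genes. Of 150 pairs of the matrix and mineral list 4 rose and 4 fell (5.33%), and of 173 of the osteoclast list 2 rose and none fell (1.16%). Calls over all nuclei of a library are counted here too, so a gene can count more than once. *Id1* (1.44, SE 0.30, adjusted p = 0.0100) and *Id3* (1.18, SE 0.27, adjusted p = 0.0200), both targets of BMP signalling, rose in cortical astrocytes, where 2.33% of 7135 genes were called. *Eng*, a BMP co-receptor of endothelial cells, rose in deep brain endothelial cells (0.75, SE 0.16, adjusted p = 0.0143). *Bmper*, a secreted BMP binder, fell in deep brain astrocytes (−0.95, SE 0.21, adjusted p = 0.0153). In the same astrocytes the mineral genes *Alpl*, which encodes the tissue-nonspecific alkaline phosphatase, fell (−1.35, SE 0.19, adjusted p = 0.000961) and *Smoc1* rose (0.45, SE 0.11, adjusted p = 0.0264). The list medians in these astrocytes were −0.01 for BMP and 0.14 for matrix and mineral genes, against 0.00 over all genes.

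*Runx2* and *Sparc* did not pass the threshold in the neurons of the deep brain. *Runx2* was 107, 81.8, 63.5, 117, 90.8 and 69.6 CPM in controls and 50.7, 51.8, 48.1, 74.2, 65.1 and 59.3 in mutants (log2 fold change −0.62, SE 0.17, adjusted p = 0.106), and the groups overlapped. Each mutant lay below the control of the same number in 6 of 6 pairs, and a fit with the replicate number as a block called it (adjusted p = 0.0409). The labels give the same age to both mice of pairs 1 to 4 but name no shared litter or day. DESeq2 gave an adjusted p of 0.0182. In this fit 0.891% of 19968 genes were called. *Sparc* was 0.53 higher (SE 0.14, adjusted p = 0.0950, DESeq2 0.0127). *Calcr*, the calcitonin receptor of osteoclasts and of neurons, rose by 0.70 (SE 0.15, adjusted p = 0.0429). All neuron types of the deep brain were fitted as 1 class, and the part of their makeup in these values was not tested. *Calcr* was also called over all nuclei of the deep brain (0.65), as were *Sp7* (0.87) and *Alpl* (−0.67). Over all nuclei of a library, which needs no clustering, 0 of 10 members in the deep brain and 0 of 9 in the cortex were called, 3 had an unadjusted p below 0.05, and DESeq2 called 2 (*Runx2* and *Sparc* of the deep brain). Of all genes, 1.54% and 0.275% were called, and 2940 of 21040 and 1559 of 18171 had an unadjusted p below 0.05 by edgeR. In these sums fewer cells of a type and less RNA per cell cannot be told apart.

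In oligodendrocytes of the deep brain none of 7 members was called (1.52% of 13574 genes), 1 with an unadjusted p below 0.05 (*Sparc*, 0.41, SE 0.14, adjusted p = 0.186). *Sp7*, which encodes the osteoblast factor osterix, rose there by 1.05 (SE 0.16, adjusted p = 0.00418). In OPC none of the 3 members that passed the filter was called (0.0896% of 11158 genes), nor any of 9 in cortical neurons (0.00602% of 16608), of 5 in cortical oligodendrocytes (0.871% of 10109), of 3 in cortical astrocytes or of 2 in cortical OPC (0.0% of 7552). The smallest p among those was that of *Sparc* in cortical astrocytes (−0.75, SE 0.25, unadjusted p = 0.00611, adjusted p = 0.145), followed by *Spp1* in cortical neurons (−1.42, SE 0.49, adjusted p = 0.655). *Gpnmb* did not pass the filter in OPC, the class highest in it. In deep brain OPC it was 9.06, 7.74, 3.43, 17.7, 8.12 and 4.39 CPM in controls and 1.39, 4.72, 1.35, 5.86, 0 and 4.75 in mutants, from 83 and 25 UMIs, and the groups overlapped. Without a filter it was called there (−1.54, SE 0.36, adjusted p = 0.00907, 0.5% of 22014 genes called) and not in cortical OPC (−2.46, SE 0.50, adjusted p = 0.0618, 94 UMIs in controls and 23 in mutants, 0.00471% of 21243 genes called). *Gpnmb* in deep brain astrocytes did not pass either (−1.03, SE 0.33, adjusted p = 0.0834).

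**Figure D4:**
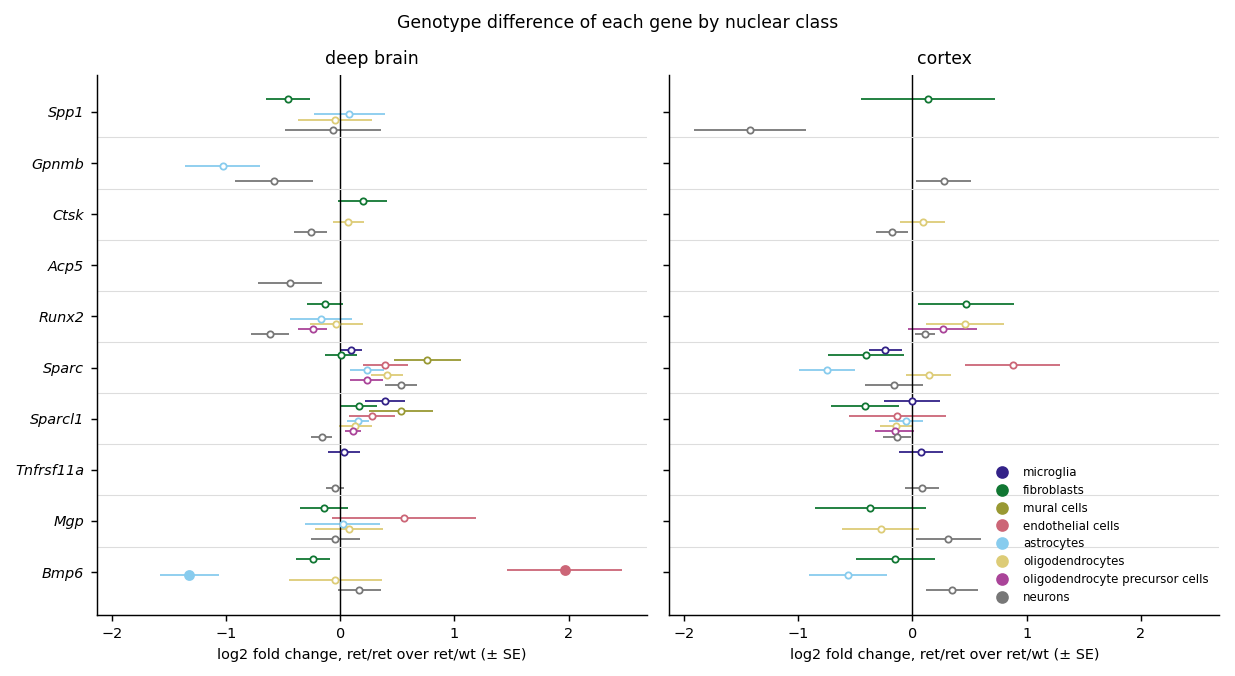
Log2 fold change of mutants over controls, with its standard error, for each gene and class that passed the filter on low counts, in the deep brain and the cortex. Filled points passed an adjusted p of 0.05 and open points did not, and *Bmp6* in cortical endothelial cells (called) is left out because the controls were at 0. The filled points are *Bmp6* in endothelial cells (1.96) and in astrocytes (−1.32) of the deep brain.

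Between the regions of control mice, the calcification-prone deep brain and the cortex differed for 5 of the genes. The main fits did not pair the 2 libraries of a mouse, and calls with the mouse as a block are given below. Among the 27 member and class pairs tested, 3 were higher in the deep brain, 4 were lower, and 13 had an unadjusted p below 0.05. Over all genes 6.04% of the 51696 gene and class pairs of the same fits were called. An unadjusted p below 0.05 was common among all genes too. The share was lowest in endothelial cells (214 of 2436 genes) and highest in astrocytes (2584 of 11836). Neurons were left out because the regions hold other neuron types. *Sparc* showed the clearest difference and went in different directions in different classes. In astrocytes it was 145, 157, 233, 41.1, 147 and 158 CPM in the cortex and 361, 535, 574, 329, 390 and 385 in the deep brain of the same 6 controls. All deep brain values exceeded all cortical ones (log2 fold change 1.51, SE 0.21, adjusted p = 5.06e-05, 10.7% of 11836 genes called). The deep brain astrocytes of controls were 2 clusters, with 71.6% of nuclei at 569 pooled CPM and 28.4% at 111. Cortical astrocytes were at 148 pooled CPM, above the smaller deep brain cluster. The part of the cluster makeup in this difference was not tested. In OPC *Sparc* was 20.2, 24.0, 22.5, 4.95, 13.6 and 30.5 CPM in the cortex and 51.5, 67.7, 87.7, 42.2, 49.2 and 81.1 in the deep brain, also without overlap (1.77, SE 0.26, adjusted p = 6.05e-05, 8.22% of 11107 genes called). Both held in all 12 alternative fits.

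In microglia *Sparc* was lower in the deep brain in all 6 controls, at 954, 1314, 975, 1168, 1030 and 823 CPM in the cortex and 856, 796, 799, 828, 763 and 630 in the deep brain (−0.47, SE 0.12, adjusted p = 0.0161, 2.22% of 6265 genes called). That call held in 8 of 13 alternative fits and in 2 of 6 that left out a mouse. In fibroblasts taken as 1 class no member was called (0.0544% of 7350 genes called). The smallest p there was that of *Ctsk*, at 54.2, 58.3, 112, 39.2, 34.5 and 27.4 CPM in the cortex and 16.6, 19.0, 31.0, 18.7, 19.9 and 16.6 in the deep brain, lower in the deep brain in all 6 controls (−1.32, SE 0.32, unadjusted p = 0.000812, adjusted p = 0.203, DESeq2 0.0141). *Sparc* came next (−0.86, SE 0.25, adjusted p = 0.268). In the fibroblasts outside the *Slc47a1* cluster, tested apart after the data had been seen, it was lower in the deep brain (−1.09, adjusted p = 0.00416, 9.14% of 6138 genes called). In endothelial cells it did not pass (0.07, SE 0.30, adjusted p = 0.979, 0.0411% of 2436 genes called).

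*Spp1* in oligodendrocytes was 1.28, 0, 1.92, 0, 1.74 and 1.71 CPM in the cortex and 2.87, 8.68, 11.1, 4.58, 4.41 and 6.65 in the deep brain, with no overlap (2.25, adjusted p = 0.0155, 6.33% of 12702 genes called), and 11 of 12 alternative fits called it. It gave 11 UMIs in the cortex and 288 in the deep brain. The gene passed the filter on low counts mainly through the deep brain libraries, so the call adds little support to these values. These levels come from 1.68% of the deep brain nuclei and 0.330% of the cortical ones. The direction was not particular to oligodendrocytes. In astrocytes *Spp1* was at 4.81 ± 2.25 CPM in the deep brain and 1.17 ± 1.96 in the cortex, and in OPC at 2.74 ± 1.33 and 0.0875 ± 0.214. It did not pass the filter in these 2 classes, and without a filter it was called in both (edgeR adjusted p = 0.0443 and 0.0336, with 6.81% of 22529 and 6.81% of 21692 genes called). These calls rest on 3 and 1 UMIs in the cortex and 77 and 26 in the deep brain, so they add little support. In microglia *Spp1* was at 7.94 ± 6.13 and 0.337 ± 0.826 CPM and was not called (adjusted p = 0.295), nor was it in endothelial cells, at 14.0 ± 19.4 CPM and 0 (adjusted p = 0.497). *Spp1* in neurons, which can give free RNA, also stood higher in the deep brain (10.5 ± 7.77 CPM against 2.04 ± 1.64), and its part was not tested. *Gpnmb* in OPC was lower in the deep brain in all 6 controls, at 121, 32.0, 6.15, 49.5, 13.1 and 16.9 CPM in the cortex and 9.06, 7.74, 3.43, 17.7, 8.12 and 4.39 in the deep brain (−1.68, SE 0.49, adjusted p = 0.0355). The highest cortical value rests on 25 nuclei. *Bmp6* in astrocytes was lower in the deep brain (−0.77, SE 0.23, adjusted p = 0.0323), in 5 of 6 mice, and *Runx2* in oligodendrocytes too (−0.88, SE 0.25, adjusted p = 0.0406), also in 5 of 6. These 3 calls held in 9, 7 and 6 of 12 alternative fits. In controls *Bmp6* was at 7.07 pooled CPM in the larger deep brain astrocyte cluster and at 44.8 in the smaller. Cortical astrocytes were at 32.1 pooled CPM, and the part of the cluster makeup was not tested. With the mouse as a block, which the shared animal justifies, *Runx2* in oligodendrocytes was no longer called (adjusted p = 0.0547), while *Runx2* in astrocytes (adjusted p = 0.0440) and *Sparc* in oligodendrocytes (adjusted p = 0.0236) were.

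The lists held further calls between regions. Of 61 tested pairs of the osteoclast list 3 were higher and 5 lower in the deep brain (13.1%), and of 85 of the BMP list 1 was higher and 4 were lower (5.88%). Of 39 of the matrix and mineral list none was higher and 2 were lower (5.13%). Over all genes 6.04% of the pairs of the same fits were called, so the BMP list and the matrix and mineral list were near that share. *Car2*, a carbonic anhydrase that also marks oligodendrocytes, was higher in OPC (1.40, adjusted p = 7.81e-06) and microglia (1.87, adjusted p = 0.00230), and *Mitf* in astrocytes (0.41, adjusted p = 0.0393). *Ostm1* (−0.51), *Fos* (−1.12) and *Csf1r* (−1.44) were lower in astrocytes, *Csf1r* also in OPC (−2.03) and *Tcirg1* in oligodendrocytes (−0.72). *Csf1r* is a microglial gene, and the part of microglial RNA in its values was not tested. Of the BMP genes, *Id4* (−1.05), *Bmper* (−0.92) and the ligand gene *Bmp7* (−0.67) were lower in astrocytes and *Bmp4* in OPC (−1.32), and *Smad9* was higher in oligodendrocytes (1.03).

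**Figure D5:**
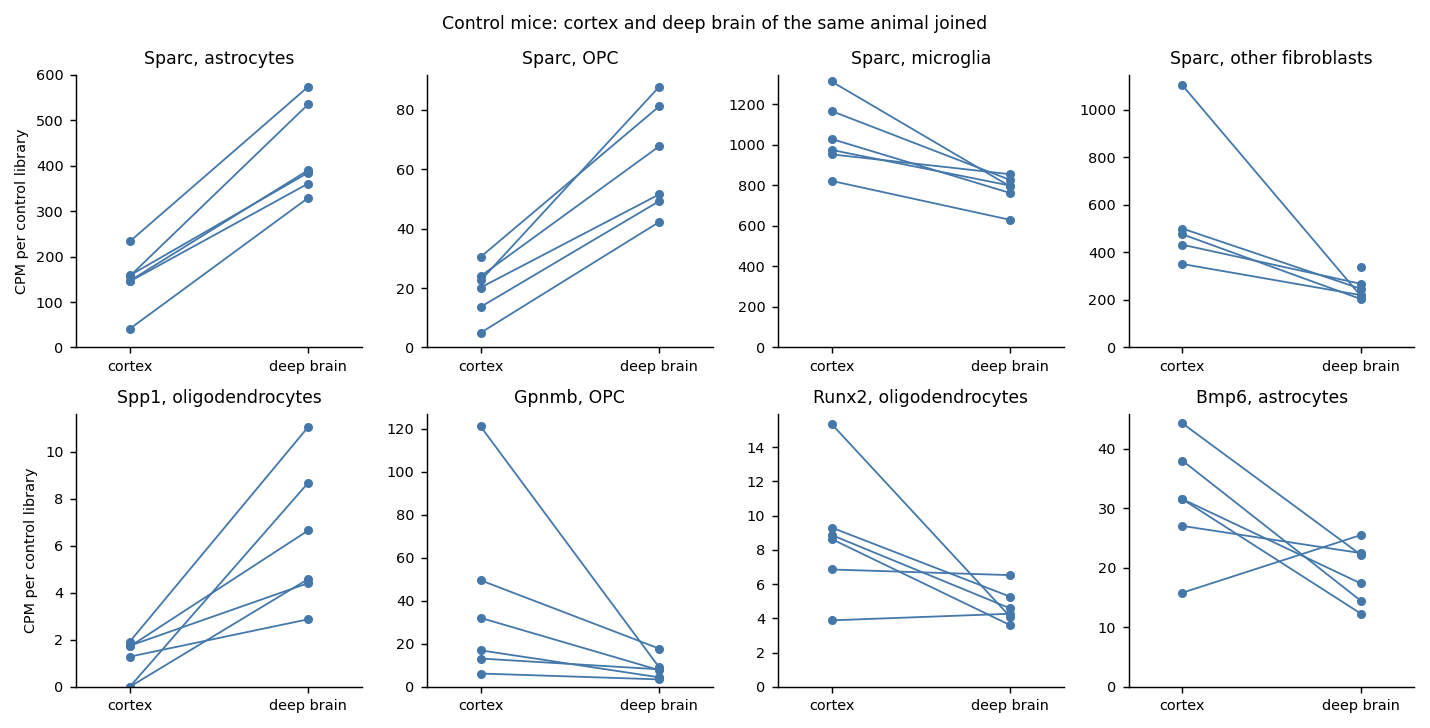
CPM per library of members called between regions, in the cortex and the deep brain of 6 control mice, with the regions of 1 mouse joined. *Sparc* rises from cortex to deep brain in astrocytes and OPC and falls in microglia and in the fibroblasts outside the *Slc47a1* cluster, and *Gpnmb* in OPC falls in all 6 mice.

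The genes most like each member across classes and regions were found from 18 points, the mean log2(CPM + 1) of controls in each class and region, over 14086 genes with at least 20 CPM somewhere. The points share libraries, and those of small classes are noisy. *Tnfrsf11a* was most like *Arhgap25* (Pearson r = 0.98), *Rasgrp4* (0.96) and *Tm6sf1* (0.96). *Spp1* was most like *Slc5a5* (0.94), the fibroblast proteoglycan gene *Dcn* (0.92) and *Gm42397* (0.90). *Mgp* was most like *Igf2* (0.95), *Pcolce* (0.91) and *Ogn* (0.90), and *Bmp6* like *Col23a1* (0.92), *Igfbp6* (0.90) and *Rspo3* (0.88). *Gpnmb* was most like *6330576A10Rik* (0.95), *Rlbp1* (0.94) and *Scel* (0.94). *Runx2* was most like *Cyfip2* (0.95), *Mkx* (0.94) and *Epha3* (0.93), *Sparcl1* like *Amot* (0.95), *Nhsl1* (0.93) and *Prex2* (0.92), *Sparc* like *Strn3* (0.89), *Lats2* (0.88) and *Tns1* (0.87), and *Ctsk* like *Slc38a2* (0.87), *Kcnk5* (0.85) and *Slc9b2* (0.84). *Acp5* was too low for its neighbours to be read. Among the 10 genes themselves the highest correlation was 0.71, between *Spp1* and *Mgp*, and the lowest −0.52, between *Tnfrsf11a* and *Runx2*.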

How the data were processed

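The authors aligned reads with Cell Ranger 5.0.1 (bcl2fastq 2.20.0.422), introns included, to mm10. The matrices they deposited hold raw UMI counts. Coordinates are from GENCODE M21. Nuclei with over 500 and under 7000 genes and under 20% mitochondrial UMIs were kept, scaled to 1000 UMIs, and clustered per region in scanpy 1.11.5 (Python 3.11.15, 2000 variable genes, 20 components, 20 neighbours, Leiden resolution 1). Clusters were named from fixed markers, with naming limits set after they had been seen. Counts were summed per library and class (at least 5 nuclei, 3 libraries per group) and tested with edgeR 4.0.16 in R 4.3.3 (filterByExpr, TMM, quasi-likelihood test, Benjamini-Hochberg over all genes tested, threshold 0.05), after the scripts had been tested on simulated data. CPM were scaled by the summed UMIs of those nuclei. Shares of nuclei were compared by exact permutation. Genes from lists were named by smallest adjusted p, up to 5 per direction, and pattern neighbours were the 3 most correlated genes. The genes and lists were chosen with earlier results of these data known. Results of 1 list gene are not reported here. Each library is 1 mouse and region.

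Alternatives were DESeq2 1.42.0, RLE size factors, no filter, a resolution of 0.5, all nuclei of the microglial clusters, under 5% mitochondrial UMIs, unthinned shares, a replicate block, removal of Scrublet doublets and leaving out each mouse. Scrublet's automatic threshold did not work in 8 of the 12 cortical libraries (0.016 to 0.106% or 25.2 to 46.8% of nuclei marked, against 1.55 to 5.29% in the other 4), so the highest scores at an expected 0.8% per 1000 nuclei were removed in all 12. Doublets were otherwise kept. Same-numbered mice of the 2 genotypes deviated together in the cortex (correlations of 0.37 to 0.92 in 6 of 6 pairs) but not in every deep brain pair (−0.20 to 0.59). The numbers were not taken as pairs in the main fits of either region, so the cortical fits leave out this shared deviation. The replicate block was an alternative only. Both mice of pairs 1 to 4 have the same age, those of pairs 5 and 6 do not. Both regions come from the same mouse, and the main region and interaction fits did not pair them.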

Additional observations from a re-analysis of the deposited data

Results flagged for a closer look

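In 63 groups of 4 to 6 libraries, 14 held a library far from the others of its group by Dixon's criterion, with a limit meant for about 1 of 20 groups. That rate does not hold for sparse counts, where 1 library with a UMI among libraries at 0 always passes. The 14 groups are therefore not set against it. Control 3 accounted for 4 of them. In its deep brain endothelial nuclei *Bmp6* was at 227.6 CPM, against 0 to 60.7 in the other controls, with 29 UMIs in 5 of 55 nuclei, and *Mgp* was at 714.3 CPM, against 12.9 to 82.3. In its fibroblasts *Ctsk* was at 30.95 CPM in the deep brain and at 111.6 CPM in the cortex, the latter from 13 UMIs in 5 of 19 nuclei.

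*Bmp6* in deep brain fibroblasts was at 1026 CPM in control 4 (590.6 to 727.3 in the others) and at 457.4 in mutant 6 (584.2 to 644.5). *Mgp* in deep brain fibroblasts was at 558.9 CPM in mutant 1 (247.9 to 354.2). *Sparc* in cortical microglia was at 1257 CPM in mutant 3 (749.2 to 896.2), a library with 28 microglial nuclei. *Gpnmb* in deep brain microglia was at 45.69 CPM in mutant 1, where 22 UMIs came from 1 of 185 nuclei.

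Other values rest on 1 to 5 UMIs. In cortical microglia *Spp1* was at 12.8 CPM in mutant 2 and 2.023 in control 5, and *Gpnmb* at 1.703 in mutant 5 and 7.733 in control 4, each from 1 UMI. *Mgp* in cortical endothelial cells was at 161.2 CPM in control 1, from 5 UMIs in 2 of 8 nuclei.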

How the results depend on the processing

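Of 329 alternative values of 23 member results, 270 kept their direction and their side of the threshold, 37 lost the call, 21 gained one and 1 reversed. That one was *Sparcl1* between regions in astrocytes, at 0.43 (adjusted p = 0.0153) at a clustering resolution of 0.5 against −0.12. The cause was not tested. Without a filter on low counts the number of members called was 4 instead of 2 between genotypes in the deep brain (with *Gpnmb* in OPC and, mostly from 1 nucleus, in microglia), 2 instead of 1 in the cortex (with *Sparc* in astrocytes, adjusted p = 0.00684), 11 instead of 7 between regions (with *Spp1* in astrocytes and OPC and *Bmp6* and *Mgp* in endothelial cells among those gained) and 3 instead of 1 between CAM-gene-positive and other nuclei, where it was 2 with all nuclei of the microglial clusters and 0 with DESeq2 or RLE size factors. Over all nuclei of a library DESeq2 called 2 and the replicate block 1 (*Runx2*, adjusted p = 0.0418) instead of 0. The replicate block also called *Runx2* in deep brain neurons (adjusted p = 0.0409) and left *Bmp6* in cortical endothelial cells called, and the mouse block called 8 instead of 7 between regions. Without doublets, a rule chosen after seeing the data, 0 were called in the cortex because endothelial cells were too few to be fitted. Leaving out each mouse gave 1 to 4 calls between genotypes in the deep brain, 1 to 2 in the cortex, 0 to 1 over all nuclei, 3 to 5 between regions, 0 to 1 for CAM-gene-positive nuclei and 0 for the interaction and the shares. Without control 3 the deep brain count was 4. The fits without a filter tested more genes and more members than the main fits. Of all genes they called 0.338% in deep brain microglia and 0.5% in deep brain OPC between genotypes. Between regions they called 6.81% in astrocytes and in OPC, and 1.69% between CAM-gene-positive and other nuclei. The counts of members above show how calls depend on the processing and are not a result about the members. Shallow cortical libraries and 29 mural nuclei limit what could be tested.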

Other observations

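Border macrophages were not among the classes compared between genotypes, so the following values have no test. *Sparc* in border macrophages of the deep brain was 0, 86.1, 0, 0, 0 and 77.5 CPM in controls 1 to 6 and 123, 106, 96.2, 119, 101 and 244 CPM in mutants 1 to 6. How many other genes separate the groups in this class was not counted. These levels rest on few molecules, 5 UMIs in 5 of 71 control nuclei (7.04%) and 28 UMIs in 25 of 127 mutant nuclei (19.7%). Microglia, which hold far more *Sparc*, had summed markers at a median of 3703.41 CPM in these nuclei in controls and 3871.83 in mutants, and the 6 fibroblast markers were at medians of 0 and 60.2 CPM. The comparison was picked after its values had been seen.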
